A study of Arabidopsis thaliana with 34 samples.

Results

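The deletion line pAP142 was compared with wild-type Col-0 in seedlings collected in the morning, the time point called t2. The comparison rests on 6 of the 34 samples of the series, chosen by their titles: 3 pAP142 t2 samples and 3 Col-0 t2 samples. pAP142 is the T4 generation of line 22.4.15, homozygous for the loss of syntenic block 438 on chromosome 5. It was made in Col-0 with a T-DNA that expresses SaCas9 from a promoter active in the egg cell, together with a pair of gRNAs. The paper marks line 22.4.15 as a null segregant, which no longer carries that T-DNA. Col-0 carries no deletion. Both were grown on plates in long days for about 2 weeks, and each sample was a pool of seedlings. All pAP142 samples come from 1 line, and differences between this line and Col-0 elsewhere in the genome were not analysed here. The paper's own variant analysis found little divergence from Col-0 in its deletion lines, with the pAP142 lines as the exception. It names differences between Col-0 sublines or effects of T-DNA transformation as possible sources. Nothing in the labels says that the pools came from separate plates, so p-values measure the spread between pools. For single genes that spread was estimated over 19 pools of the same time-of-day experiment. Besides the 6 above, these are evening pools of pAP142 and Col-0, and morning and evening pools of pAP141, a second deletion line. By their titles, the pAP141 samples all come from a single line in the T4 generation. The morning pools of pAP141 also serve as a further comparison group below.

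Syntenic blocks are stretches of chromosome that a past whole-genome duplication left in pairs, and the genes of a pair are called paralogues. The block lost in pAP142 holds AT5G28060, a gene for the ribosomal protein S24e of the small ribosomal subunit, whose paralogue AT3G04920 lies on chromosome 3. Arabidopsis encodes most ribosomal proteins in small families, and mutants in single members are known for narrow, pointed and pale leaves, slow growth and altered stress responses. The question was which transcripts differ in the morning in plants that lack the block.

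The target sites of the gRNA pair are shown because they set the ends of the deletion. They were found by an exact match of each spacer to TAIR10.1, 1 site each, both on the plus strand, at chr5:10029550-10029570 for the left spacer and chr5:10279368-10279388 for the right one. The spacer is in lower case, 5′ to 3′, and the PAM that SaCas9 requires is in capitals.
left site: gaagagtctctcgtttgtgcgGAGGGT
right site: gctgatggagtataccgatgtTCGGGT
With a cut 3 bases from each PAM, the breaks fall after bases 10029567 and 10279385 of chromosome 5 and are 249.8 kb apart. Of the 16 genes listed as deleted, 15 lie wholly between the breaks. The left break is 65 bases from DES1, an L-cysteine desulfhydrase gene that makes hydrogen sulfide. The right break lies in NEK3, a NIMA-related kinase gene on the minus strand, and leaves 70.4% of its 1707 coding bases in place.

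Estimated counts summed to 39193948, 35166895 and 32601168 in the pAP142 t2 samples and to 38520200, 42014069 and 32577444 in the Col-0 t2 samples. Of 27538 genes in the files, 21356 passed the filter on low counts and were tested with the quasi-likelihood test of edgeR, with all 19 samples of the time-of-day experiment in 1 model. Throughout, genes with a Benjamini-Hochberg adjusted p below 0.05 count as called, levels are transcript abundances scaled to the same total in each sample (TPM), and log2 fold changes are pAP142 t2 over Col-0 t2 with their standard error (SE). The 3 pAP142 t2 pools did not lie together. On the second principal component, pAP142 t2 replicates 2 and 3 stood at 50.6 and 53.4 and replicate 1 at 24.1, whereas the Col-0 t2 samples stood between -21.8 and -17.2. Replicate 1 had no reads of the called deleted genes.

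No transcript of the deleted block was left in pAP142 other than that of the cut gene NEK3 and a few stray reads. Of the 16 genes, 8 passed the filter on low counts and 7 of these were called lower, where 2.67% of all genes tested were called lower. AT5G28060 had 0, 0 and 0.142 TPM in pAP142 t2, against 705, 777 and 688 TPM in Col-0 t2. That is 2 reads against 34754, a 16300-fold lower level (95% Poisson interval 4510 to 135000, counting error only). The cytidine deaminase family gene AT5G28050 had no reads in the 3 pAP142 t2 samples and 86.7 ± 1.85 TPM (SD, n = 3) in Col-0 t2, at least 1200-fold lower by a floor of 3 reads in a library. The same floor gives at least 239-fold for AT5G28040, a storekeeper-related transcriptional regulator, at least 149-fold for AT5G28150, which has a DUF868 domain, and at least 124-fold for AT5G28220, a prenyltransferase-family gene. DES1 was at least 45.6-fold lower and the kinase gene WNK9 at least 17.0-fold lower. These 6 genes had no reads in any pAP142 pool, replicate 1 included.

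NEK3 was not called, with 8.51, 8.02 and 8.15 TPM in pAP142 t2 against 7.54, 7.71 and 6.89 TPM in Col-0 t2 (log2 fold change 0.18, SE 0.129, adjusted p = 0.428 in edgeR). The groups do not overlap. Reads were counted per whole transcript, so where in NEK3 they lie was not examined. Among the 8 deleted genes under the filter, 6 had no reads in any of the 6 samples and AT5G28237 had 1 read in 1 Col-0 t2 sample. AT5G28235, which encodes a Ulp1 protease family protein, had 5.96, 2.52 and 12.9 estimated reads in the pAP142 t2 samples and none in Col-0 t2. It lies wholly within the deleted stretch, and reads of near-identical copies elsewhere were not separated from its own. Over all 16 genes the sum was 8.35 ± 0.274 TPM in pAP142 t2 and 851 ± 48.6 TPM in Col-0 t2 (SD, n = 3 each; 2-sided exact permutation test p = 0.1, the smallest that 3 against 3 allows).

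**Figure D1:**
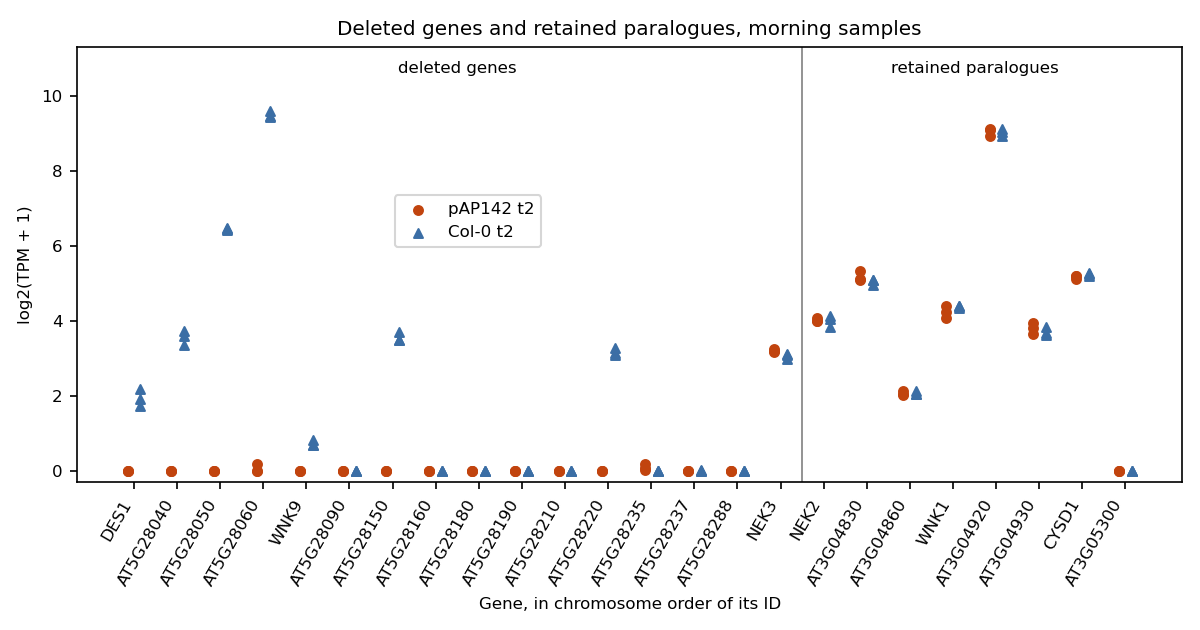
Level of each deleted gene and each retained paralogue in the 6 morning samples, as log2(TPM + 1); circles are pAP142 t2 samples and triangles Col-0 t2 samples. Of the deleted genes NEK3 alone kept its level in pAP142 t2, and each paralogue that was expressed had circles and triangles at about the same height.

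No rise of the retained paralogues was detected in the morning. Of the 8 listed, 7 were tested and none was called, with a median log2 fold change of 0.04 against -0.01 over all genes tested. No paralogue reached an unadjusted p under 0.05, and DESeq2 called none either. AT3G04920, the other S24e gene, had 548, 543 and 485 TPM in pAP142 t2 against 526, 551 and 488 TPM in Col-0 t2. The groups overlap (log2 fold change 0.04, SE 0.112, adjusted p = 0.869 in edgeR). In the evening samples AT3G04920 was called higher (0.32, SE 0.104, adjusted p = 0.0420 in edgeR). The difference between the times was not called (adjusted p = 0.557 in edgeR). The S24e pair together stood at 548, 543 and 486 TPM in pAP142 t2 against 1231, 1329 and 1176 TPM in Col-0 t2. The other tested paralogues, CYSD1, AT3G04930, WNK1, AT3G04860, AT3G04830 and NEK2, had log2 fold changes from -0.13 to 0.17. The sum of the 8 paralogues was 646 ± 39.2 TPM in pAP142 t2 and 641 ± 36.3 TPM in Col-0 t2 (SD, n = 3 each; 2-sided exact permutation test p = 0.7).

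Outside the deletion the differences reached across the transcriptome. In all, 1654 genes were called, 7.74% of those tested, with 1083 higher in pAP142 t2 (5.07%) and 571 lower (2.67%). At least 2-fold changes made up 484 of the higher and 180 of the lower calls, and the median log2 fold change was 0.92 among the higher and -0.64 among the lower calls. In 5049 genes (23.6%) the 3 samples of one group lay entirely above those of the other, and 1558 of the called genes were among them. The number of calls moved with single pools. It was 2544 without pAP142 t2 replicate 1, 730 without replicate 2 and 767 without replicate 3, and 810, 661 and 1158 without Col-0 t2 replicate 1, 2 or 3 in that order, and 491 genes were called in the same direction in each of these fits.

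Changes were ranked among called genes whose groups did not overlap and whose higher group averaged 5 TPM or more. The largest increases were in a NAC transcription factor, a transporter, a thioredoxin and several small proteins of unknown role. NAC044, a NAC-domain transcription factor that is induced by DNA damage and holds back cell division, had 19.6, 18.2 and 14.4 TPM in pAP142 t2 against 1.46, 1.54 and 0.738 TPM in Col-0 t2. All 3 pAP142 pools stood far above Col-0 (log2 fold change 3.83, SE 0.286, adjusted p = 4.63e-07 in edgeR). AT2G04050, a MATE-family efflux transporter gene, had 42.9, 44.6 and 53.1 TPM in pAP142 t2 against 4.45, 1.85 and 3.37 TPM in Col-0 t2 (log2 fold change 3.90, SE 0.397). TH8, an h-type thioredoxin gene, had 31.6, 33.5 and 50.9 TPM in pAP142 t2 against 6.32, 2.09 and 3.30 TPM in Col-0 t2 (3.36, SE 0.461). For these 3 genes pAP142 replicate 1 was not set apart from the other pools, and each call stood whichever of the 6 samples was left out.

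Several other large increases were less even among the pools. PNP-A, a secreted plant natriuretic peptide, had 3.83, 4.97 and 9.33 TPM in pAP142 t2 against 0.535, 0.762 and 0.712 TPM in Col-0 t2. AT3G18250, annotated as a membrane lipoprotein, had 42.6, 189 and 129 TPM in pAP142 t2 against 18.9, 23.2 and 20.1 TPM in Col-0 t2. GLYI7, a glyoxalase I gene of the detoxification of methylglyoxal, had 6.99, 21.9 and 49.1 TPM in pAP142 t2 against 6.66, 1.5 and 2.88 TPM in Col-0 t2. In AT3G18250 and GLYI7, pAP142 replicate 1 was the pool closest to Col-0. RTFL21, a gene for a small peptide of the ROTUNDIFOLIA family, and the uncharacterized genes AT4G13577, AT1G75945, AT1G64795 and AT4G07995 had log2 fold changes between 3.11 and 6.43. AT4G13577 was even among the pools, with 13.95, 11.07 and 14.98 TPM in pAP142 t2, and was called whichever sample was left out. Of the 6 fits with a sample left out, AT1G64795 was called in 1 and RTFL21 and AT1G75945 in 3. GLYI7 and AT4G07995 were called in 4 of the 6. AT4G07995 had 5, 10 and 13 reads in pAP142 t2 and none in Col-0 t2, at least 2.92-fold higher by a floor of 3 reads in a library, so that its fitted fold change is no measure of its size.

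**Figure D2:**
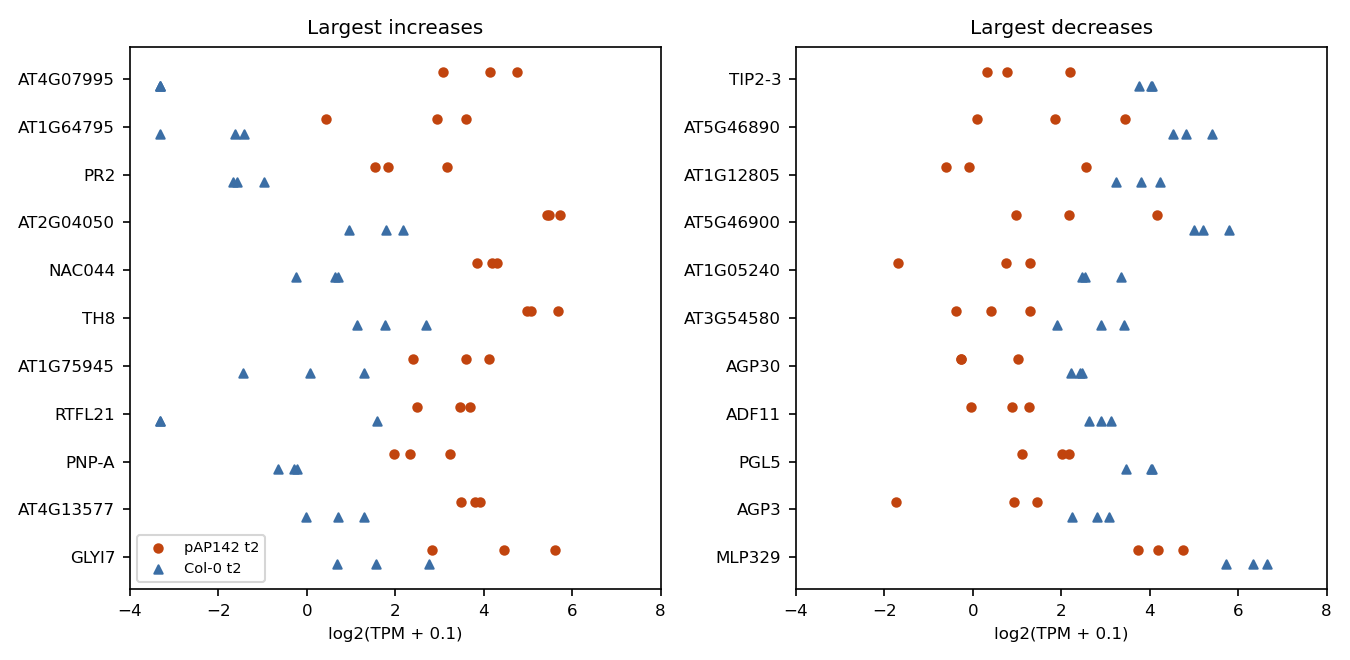
Levels in the 6 morning samples, as log2(TPM + 0.1), of the 11 largest increases and 11 largest decreases among genes that the line retains; circles are pAP142 t2 samples and triangles Col-0 t2 samples. The circles of NAC044, AT2G04050 and TH8 lie close together and far right of the triangles, and in most decreases 1 circle, that of pAP142 t2 replicate 1, lies nearest to the triangles.

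The 250 bases before the annotated start of NAC044 and of AT2G04050 are shown because both genes, which rose by similar amounts, hold the letters CTTNNNNNNNAAG there. In Arabidopsis this palindrome is known as the sequence bound by SOG1, the transcription factor of the DNA damage response. Bases are from RefSeq, build TAIR10.1, read 5′ to 3′ on the strand of the gene, chr3:228825-229074 (plus strand) for NAC044 and chr2:1339469-1339718 (minus strand) for AT2G04050, with the match in capitals.
NAC044: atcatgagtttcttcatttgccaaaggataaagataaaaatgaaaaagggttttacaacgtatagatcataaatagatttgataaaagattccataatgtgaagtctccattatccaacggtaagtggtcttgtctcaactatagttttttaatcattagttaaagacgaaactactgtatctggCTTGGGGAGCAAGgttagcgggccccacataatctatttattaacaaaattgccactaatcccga
AT2G04050: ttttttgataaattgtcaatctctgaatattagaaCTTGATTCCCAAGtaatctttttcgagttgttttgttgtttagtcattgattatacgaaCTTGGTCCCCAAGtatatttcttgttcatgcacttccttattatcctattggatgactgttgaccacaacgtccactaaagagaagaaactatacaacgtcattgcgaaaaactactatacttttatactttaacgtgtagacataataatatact
NAC044 holds 1 match, which begins 65 bases before its start, and AT2G04050 holds 2. On both strands, 9.1% of 21234 windows of this length held the letters, 9.88% of those of the genes called higher and 8.58% of those called lower. Among the 12 largest increases 3 held them, with AT1G64795 as the third. Other letters searched were TTGAC, in 45.3% of all windows, 53.3% of those called higher and 48.9% of those called lower. CACGTG was in 7.22%, 7.02% and 6.13% in the same order. A match is a description of letters, and binding was not measured.

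The largest decreases included genes that are known from roots. TIP2-3, a root aquaporin of the vacuole membrane, had 4.48, 1.15 and 1.62 TPM in pAP142 t2 against 13.5, 16.1 and 16.4 TPM in Col-0 t2 (log2 fold change -2.66, SE 0.457, adjusted p = 0.00253 in edgeR). AGP30, an arabinogalactan protein of the root, had 1.92, 0.732 and 0.734 TPM in pAP142 t2 against 5.44, 5.27 and 4.59 TPM in Col-0 t2 (-2.15, SE 0.418). ADF11, an actin-depolymerizing factor of root hairs, had 2.33, 1.76 and 0.866 TPM in pAP142 t2 against 7.32, 8.61 and 6.10 TPM in Col-0 t2 (-2.11, SE 0.391). A lack of overlap between the groups was a condition of this ranking. Each of these genes was called whichever sample was left out. PGL5, a 6-phosphogluconolactonase gene of the oxidative pentose phosphate pathway, was likewise lower, with 4.41, 2.05 and 3.95 TPM in pAP142 t2 against 16.3, 16.5 and 11.0 TPM in Col-0 t2 (-2.04, SE 0.264).

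A further 7 of the largest decreases lost their call when some single sample was left out. They were AT5G46890 and AT5G46900, neighbouring lipid-transfer protein genes between which reads may be split, the peroxidase gene AT1G05240, the extensin-like gene AT3G54580, the arabinogalactan protein gene AGP3, MLP329 and AT1G12805, with log2 fold changes from -2.62 to -2.02. In AT5G46900 the pools had 17.8, 4.41 and 1.87 TPM in pAP142 t2 against 36.5, 55.3 and 32.0 TPM in Col-0 t2.

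The root marker list was lower as well. All 21 tested markers had negative log2 fold changes (median -0.85), and 4 were called lower, 19% of them against a background of 2.67%. Besides TIP2-3 these were COBL9, which shapes root hairs, CASP5, a protein of the Casparian strip of the endodermis, and LRX1, a cell wall protein of root hairs. COBL9 had 0.410, 0.223 and 0.0839 TPM in pAP142 t2 against 1.23, 1.26 and 0.803 TPM in Col-0 t2 (log2 fold change -2.15, SE 0.443). CASP5 had 0.919, 0.226 and 0.637 TPM in pAP142 t2 against 2.06, 5.20 and 2.1 TPM in Col-0 t2 (-2.37, SE 0.498). The largest difference was that of LRX1 (-3.11, SE 0.695), and SHR, SCR and MYB36, regulators of the inner root, had log2 fold changes of -0.08, -0.15 and -0.11 with no call.

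Summed over the list, root markers stood at 161, 92.8 and 95.3 TPM in pAP142 t2 against 206, 216 and 160 TPM in Col-0 t2. pAP142 replicate 1 lay at the lowest Col-0 sample and the other pools well below it. No marker was at 0 in all samples. Without pAP142 t2 replicate 1 the number of markers called lower was 10, and it was between 3 and 10 over the 6 fits with a sample left out. In pools of seedlings, fewer cells of a type and less RNA per cell cannot be told apart, and the part of root tissue in the decreases above was not tested. On the shoot side, the light-harvesting and Rubisco genes summed to 117400, 118300 and 110800 TPM in pAP142 t2 against 120300, 117700 and 130100 TPM in Col-0 t2, which overlap. Markers of seeds did not reach the filter on counts.

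Of the genes of salicylic acid signalling and defence, 8 of 20 rose. Salicylic acid is the hormone of resistance to biotrophic pathogens, made mainly through ICS1, whose gene is turned on by the transcription factors SARD1 and CBP60G. The 8 called higher (40%, against 5.07% of all genes tested) stood beside none called lower, and the median log2 fold change of the 20 was 1.28. The count was 13 without pAP142 t2 replicate 1 and lay between 4 and 13 over the 6 fits with a sample left out.

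The smallest adjusted p values were those of PR5, SARD1 and PR2. SARD1 had 1.2, 1.72 and 2.42 TPM in pAP142 t2 against 0.290, 0.491 and 0.277 TPM in Col-0 t2 (log2 fold change 2.36, SE 0.343, adjusted p = 5.48e-04 in edgeR). CBP60G had 4.31, 5.36 and 7.97 TPM in pAP142 t2 against 2.37, 2.15 and 2.37 TPM in Col-0 t2 (1.39, SE 0.331). Both regulators were higher in each pAP142 pool than in any Col-0 pool. PR5, a thaumatin-like defence protein, had 18.9, 18.3 and 37.0 TPM in pAP142 t2 against 8.55, 10.1 and 7.64 TPM in Col-0 t2 (1.53, SE 0.219). PR2, a beta-1,3-glucanase that is among the largest increases, had 2.81, 3.49 and 8.84 TPM in pAP142 t2 against 0.217, 0.413 and 0.237 TPM in Col-0 t2 (4.14, SE 0.624). PR1, the classical marker of the pathway, was called at a lower level, with 0.918, 2.67 and 0.844 TPM in pAP142 t2 against 0, 0.292 and 0.255 TPM in Col-0 t2.

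The partners of the immune regulator EDS1 rose less, by a log2 fold change of 0.71 for PAD4 (SE 0.166) and 0.64 for SAG101 (SE 0.134). FMO1, which makes the mobile signal N-hydroxypipecolic acid, had a log2 fold change of 2.06 (SE 0.569) at under 0.5 TPM. The synthesis gene ICS1 itself was not called, with 5.59, 5.86 and 7.23 TPM in pAP142 t2 against 5.56, 5.33 and 5.06 TPM in Col-0 t2 (log2 fold change 0.26). EDS1 had a log2 fold change of -0.0011 and the salicylic acid receptor gene NPR1 one of 0.26, neither called.

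**Figure D3:**
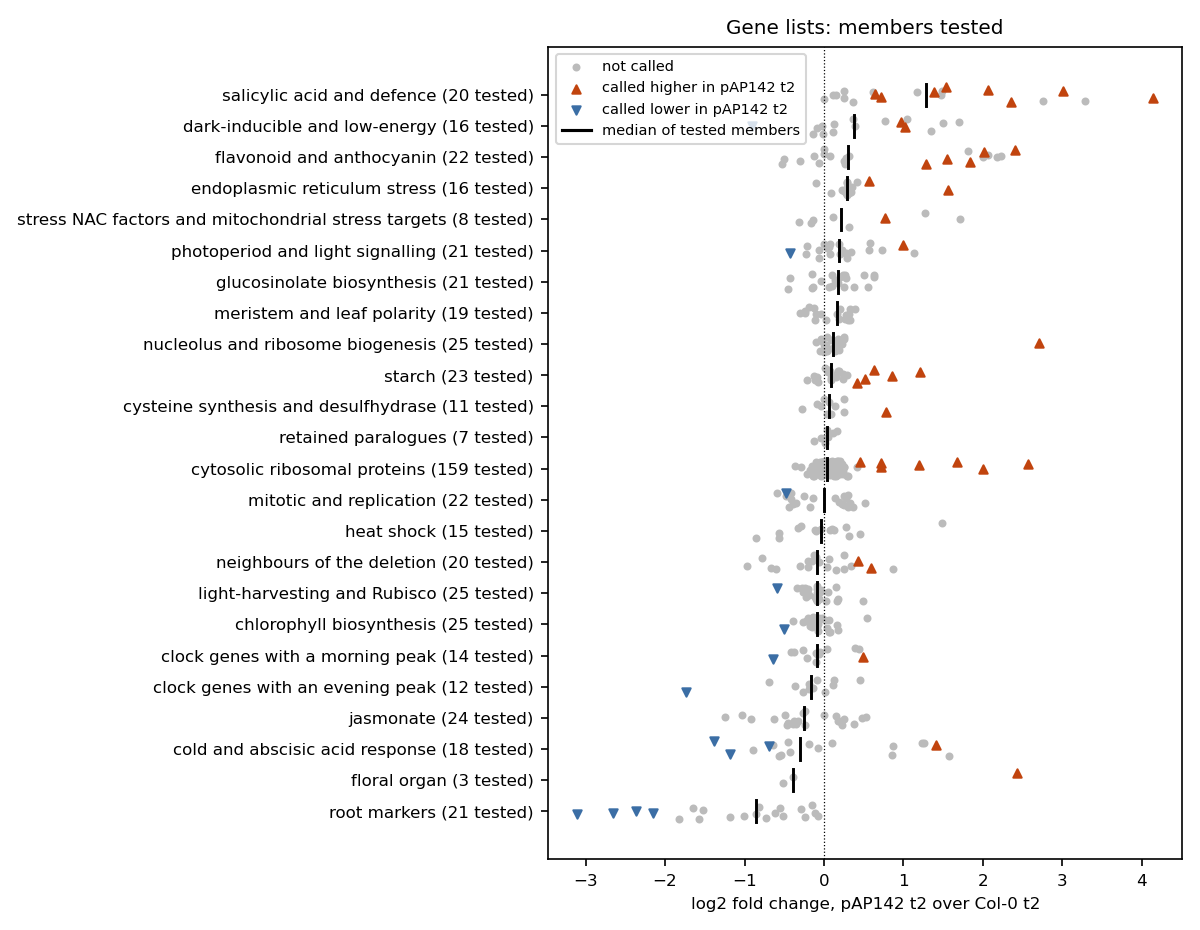
log2 fold change, pAP142 t2 over Col-0 t2, of each tested member of each gene list outside the deletion, with the median of the tested members as a bar; triangles pointing up were called higher and triangles pointing down called lower. The salicylic acid and defence list has the highest median, 1.28, and the root markers the lowest, -0.85.

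Ribosomal protein transcripts were centred near no change. Of 169 genes annotated to the cytosolic ribosome with a product named as a ribosomal protein, 159 were tested, 7 were called higher and 1, the deleted AT5G28060, lower, and the median log2 fold change was 0.04. The 7 make up 4.4%, no more than the background of 5.07%, and averaged between 0.672 and 36.4 TPM in Col-0 t2, where the median of the tested members was 429 TPM. RPL3B, a gene for ribosomal protein L3 that was called lower and is described below with the evening samples, is not in this list because of the wording of its product. AT3G09680, of the S23 family, had 11.5, 8.60 and 8.28 TPM in pAP142 t2 against 2.34, 2.87 and 1.99 TPM in Col-0 t2 (log2 fold change 2.0, SE 0.216, adjusted p = 3.26e-05 in edgeR). AT3G28500, an acidic P-protein gene, had 6.84, 10.2 and 4.0 TPM in pAP142 t2 against 1.32, 1.09 and 1.23 TPM in Col-0 t2 (2.57, SE 0.347). AT5G59240, of the S8e family, had 7.40, 7.59 and 6.45 TPM in pAP142 t2 against 3.08, 3.97 and 2.56 TPM in Col-0 t2 (1.19, SE 0.170). These 3 are called in each fit with a sample left out, and reads of members with near-identical coding sequences may be split between them by the counting.

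Among nucleolar genes 1 member was called. NUC-L2, the second nucleolin gene of Arabidopsis, whose protein acts on ribosomal RNA genes, had 5.02, 3.08 and 2.78 TPM in pAP142 t2 against 0.688, 0.616 and 0.387 TPM in Col-0 t2. It was the 1 of 25 nucleolar and ribosome biogenesis genes that was called (log2 fold change 2.71, SE 0.242, adjusted p = 3.44e-06 in edgeR), which is 4% against 5.07% of all genes, and the median of the list was 0.11.

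Enzymes of starch breakdown were among the genes that rose in the morning. Leaf starch is made by day and degraded at night to maltose and glucose. Of 23 genes of starch metabolism, 5 were called higher (21.7%, against 5.07%) and none lower, with a list median of 0.09. The higher calls were between 2 and 5 over the 6 fits with a sample left out. DPE2, the cytosolic transglucosidase that takes up maltose, had 15.3, 13.5 and 12.1 TPM in pAP142 t2 against 11.0, 10.7 and 9.65 TPM in Col-0 t2 (log2 fold change 0.41, SE 0.090, adjusted p = 0.00968 in edgeR). PHS2, the cytosolic glucan phosphorylase, had 8.98, 8.96 and 6.39 TPM in pAP142 t2 against 5.94, 4.80 and 5.29 TPM in Col-0 t2 (0.63, SE 0.120). SEX4, the phosphoglucan phosphatase, had 9.66, 12.5 and 6.08 TPM in pAP142 t2 against 6.18, 4.97 and 4.91 TPM in Col-0 t2 (0.85, SE 0.190). In SEX4 the lowest pAP142 pool lay just under the highest Col-0 pool, whereas DPE2 and PHS2 do not overlap. The debranching enzyme ISA3 (0.52) and APL3 (1.21), a subunit of the ADP-glucose pyrophosphorylase of starch synthesis, were the other calls. ISA3 and APL3 each kept their call in 1 of the 6 fits with a sample left out, and SEX4 in 4. The groups overlap in APL3, and DPE2 and PHS2 kept their call in all 6 fits. The main synthesis genes ADG1 and APL1 had 0.06 and 0.05, and the phosphorylating enzyme SEX1 had 0.24, none of them called.

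Some anthocyanin genes rose. Of 22 genes of flavonoid and anthocyanin synthesis, 5 were called higher (22.7%, against 5.07%) and none lower, with a median of 0.30. The bHLH regulator TT8 had 1.33, 1.5 and 0.917 TPM in pAP142 t2 against 0.626, 0.525 and 0.426 TPM in Col-0 t2 (log2 fold change 1.28, SE 0.314, adjusted p = 0.0181 in edgeR). TT19, the glutathione S-transferase that delivers anthocyanins to the vacuole, had 12.9, 27.4 and 5.41 TPM in pAP142 t2 against 3.35, 5.66 and 2.67 TPM in Col-0 t2 (2.02, SE 0.534), which overlap. AT1G03940, an HXXXD-type acyltransferase gene, the glycosyltransferase gene AT4G14090 and MYB11 were the other calls. None of the 5 was called in each of the fits with a sample left out, and at least 1 such fit called no gene of the list.

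Genes of the endoplasmic reticulum, which rise when unfolded secretory protein accumulates, leaned upward. Of 16 tested, 15 had positive log2 fold changes (median 0.29) and 2 were called, 12.5% against 5.07%. PDIL1-2, a protein disulfide isomerase gene, had 19.3, 22.2 and 22.7 TPM in pAP142 t2 against 17.0, 15.1 and 12.5 TPM in Col-0 t2 (log2 fold change 0.56, SE 0.116, adjusted p = 0.00689 in edgeR). BIP3, the inducible chaperone, had 0.394, 0.835 and 0.512 TPM in pAP142 t2 against 0.258, 0.228 and 0.124 TPM in Col-0 t2 (1.56, SE 0.408). PDIL1-2 was called in all 6 fits with a sample left out and BIP3 in 1, and these fits held between 1 and 4 higher calls. DESeq2, at the same threshold, called 11 of the list.

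Among sulfur genes, SERAT2;1 rose, which encodes a serine acetyltransferase that makes the precursor of cysteine. It had 91.6, 115 and 104 TPM in pAP142 t2 against 56.9, 65.1 and 61.4 TPM in Col-0 t2 (log2 fold change 0.78, SE 0.174, adjusted p = 0.0106 in edgeR), with no overlap. It was the 1 call among 11 genes of cysteine synthesis and desulfhydration that remain in the line (9.09%, against 5.07%), and was lost without pAP142 t2 replicate 2 or Col-0 t2 replicate 1. The mitochondrial NAD(P)H dehydrogenase gene NDB2 was the 1 call of 8 stress NAC factors and mitochondrial stress targets (12.5%, against 5.07%), kept in 2 of the 6 fits with a sample left out, with 16.1, 14.4 and 13.7 TPM in pAP142 t2 against 9.08, 10.5 and 7.04 TPM in Col-0 t2 (0.76, SE 0.192).

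**Figure D4:**
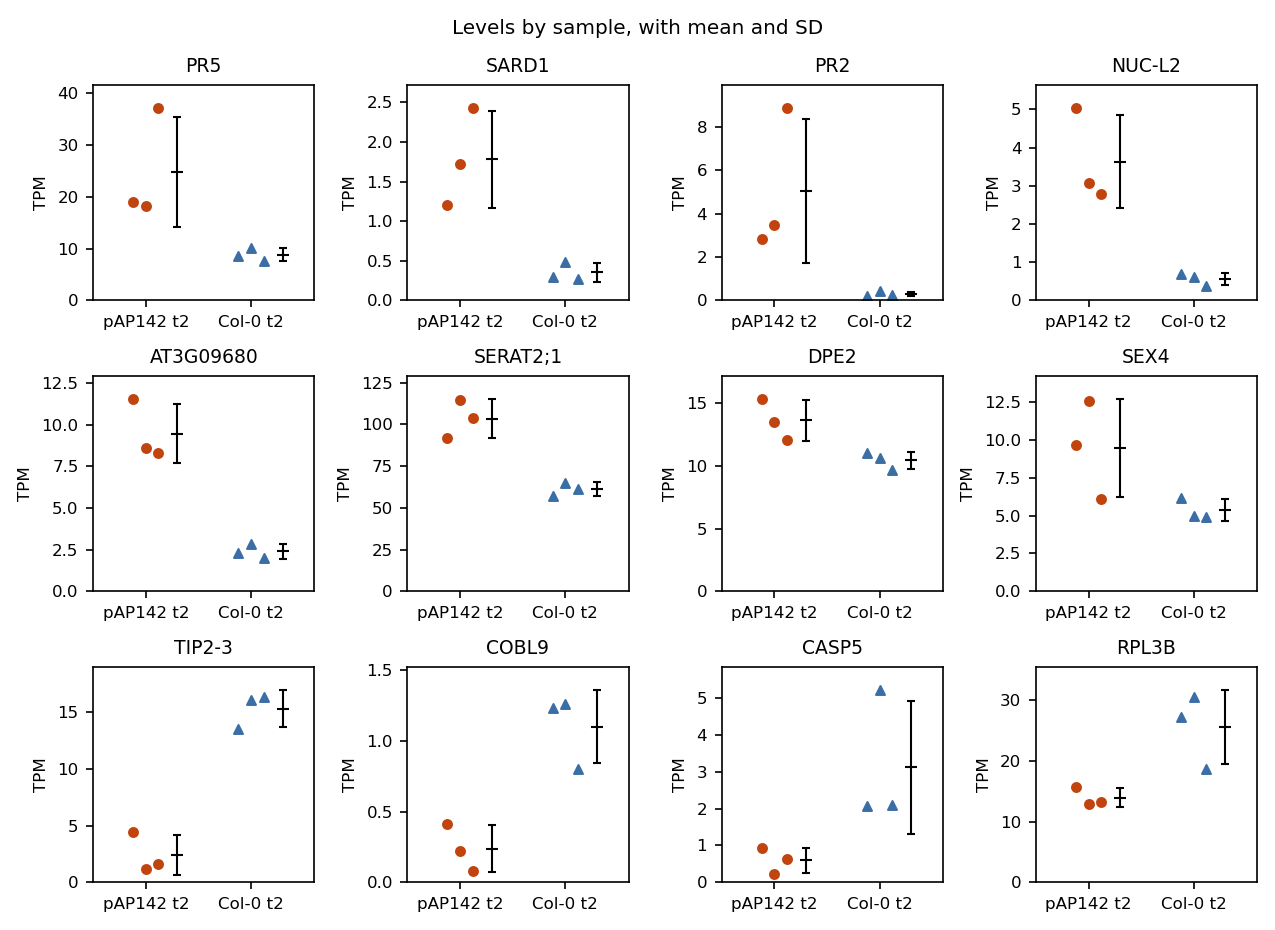
TPM of 12 named genes in the 3 pAP142 t2 samples (circles) and the 3 Col-0 t2 samples (triangles), with the mean and SD of each group beside the points; each axis starts at 0. The 3 defence genes, NUC-L2, AT3G09680, SERAT2;1 and DPE2 were higher in each pAP142 pool than in any Col-0 pool, the root markers and RPL3B lower, and in SEX4 the groups overlap.

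Single clock genes were called. Of 14 clock genes listed with a morning peak, RVE2 was called lower (7.14%, against 2.67% of all genes) and PRR9 higher (7.14%, against 5.07%). Of 12 listed with an evening peak, ELF4 was called lower (8.33%). RVE2, a MYB-like gene of the LHY family, had 10.1, 9.68 and 11.0 TPM in pAP142 t2 against 16.3, 18.4 and 14.4 TPM in Col-0 t2 (log2 fold change -0.65, SE 0.109, adjusted p = 0.00179 in edgeR). ELF4, a part of the evening complex, had 2.83, 0.944 and 2.32 TPM in pAP142 t2 against 4.94, 10.7 and 4.86 TPM in Col-0 t2 (-1.74, SE 0.331). In Col-0, RVE2 averaged 16.4 TPM in the morning and 164 TPM in the evening, despite its list, and ELF4 6.82 and 201 TPM. Both lower calls thus fall at the time of the lower level, and neither gene was called in the evening. PRR9 had a log2 fold change of 0.49 (SE 0.146) and lost its call in 5 of the 6 fits with a sample left out. Of 21 genes of photoperiod and light signalling, PIL1 was called higher and PIF1 lower (4.76% each, against 5.07% and 2.67%), and both lost their call in 5 of the 6.

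Cold and drought genes were mixed. Of 18 tested, RD20 was called higher (5.56%, against 5.07%) and COR413-PM1, COR27 and RD29A lower (16.7%, against 2.67%), with a list median of -0.30. COR413-PM1, a cold-induced membrane protein, had 108, 82.7 and 91.9 TPM in pAP142 t2 against 148, 165 and 152 TPM in Col-0 t2 (log2 fold change -0.70, SE 0.119, adjusted p = 0.00199 in edgeR). RD20, a caleosin induced by drought and abscisic acid, had 9.26, 10.1 and 12.1 TPM in pAP142 t2 against 4.66, 3.69 and 3.82 TPM in Col-0 t2 (1.41, SE 0.230). COR27, a repressor tied to the clock, had 0.278, 0.314 and 0.295 TPM in pAP142 t2 against 1.34, 0.625 and 0.428 TPM in Col-0 t2 (-1.38, SE 0.292), and RD29A, a stress marker, a log2 fold change of -1.18 (SE 0.294). In Col-0, COR27 averaged 0.797 TPM in the morning and 44.2 TPM in the evening, so its call too falls at the time of its lower level.

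Low-energy genes were higher in part. Of 16 dark-inducible genes, GDH2 and BZIP1 were called higher (12.5%, against 5.07%) and DRM1 lower (6.25%, against 2.67%). GDH2, a glutamate dehydrogenase gene, had 157, 244 and 310.1 TPM in pAP142 t2 against 146.3, 96.2 and 128 TPM in Col-0 t2 (log2 fold change 0.97, SE 0.232, adjusted p = 0.0161 in edgeR). BZIP1, a transcription factor of sugar starvation, had 44.3, 66.9 and 105.5 TPM in pAP142 t2 against 32.7, 33.6 and 42.5 TPM in Col-0 t2 (1.02, SE 0.275). In both genes pAP142 replicate 1 was the pool nearest to Col-0, and the list had 6 higher calls without that pool but none without pAP142 replicate 2, pAP142 replicate 3 or Col-0 replicate 2.

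Photosynthesis, growth and hormone lists held few calls. LHCA6, an antenna protein of photosystem I, was the 1 call of 25 light-harvesting and Rubisco genes, with 85.2, 67.2 and 72.2 TPM in pAP142 t2 against 115, 115 and 113 TPM in Col-0 t2 (log2 fold change -0.59, SE 0.155, adjusted p = 0.0260 in edgeR). PCB2, the divinyl reductase, was the 1 call of 25 genes of chlorophyll synthesis, with 36.3, 30.4 and 29.4 TPM in pAP142 t2 against 49.2, 48.3 and 41.1 TPM in Col-0 t2 (-0.50, SE 0.119). PCNA2, the sliding clamp of DNA replication, was the 1 call of 22 mitotic and replication genes (-0.48, SE 0.122). LHCA6 kept its call in 1 of the 6 fits with a sample left out, and PCB2 and PCNA2 each in 2. At 4% to 4.55% these lists are near the background of 2.67%.

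No gene was called among 24 jasmonate genes, 21 of glucosinolate synthesis, 19 of meristem and leaf polarity or 15 of heat shock in edgeR, nor in DESeq2. At an unadjusted p under 0.05 there were 5, 2, 0 and 2, where 23.0% of all genes tested had such a p. The members with the smallest p were JAZ3 (log2 fold change -0.35, SE 0.128), MYB51 (0.63, SE 0.271), KAN1 (0.20, SE 0.106) and HSA32 (-0.33, SE 0.150). Of the floral organ genes 3 were tested and 1, the petal and stamen identity gene PI, was called higher (33.3%, against 5.07% of all genes). The other tested members, AG and LFY, had log2 fold changes of -0.51 and -0.38 with no call. PI had 12.8, 13.9 and 67.5 TPM in pAP142 t2 against 10.9, 2.83 and 4.55 TPM in Col-0 t2. Its log2 fold change was 2.43 (SE 0.560), and it was called in 3 of the 6 fits with a sample left out. The call was lost, among others, without pAP142 t2 replicate 3, the highest pool. AP3, the partner of PI, stood under 0.2 TPM in every pool.

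Of the 10 nearest tested genes on each side of the deletion, 2 were called higher (10%, against 5.07%) and none lower. The higher calls were between 0 and 3 over the 6 fits with a sample left out. AT5G28300, a trihelix-type duplicated homeodomain gene that begins 12.9 kb right of the break, had 17.3, 16.2 and 18.9 TPM in pAP142 t2 against 15.3, 12.4 and 12.1 TPM in Col-0 t2 (log2 fold change 0.43, SE 0.116, adjusted p = 0.0318 in edgeR). AT5G27930, a protein phosphatase 2C gene 68.2 kb left of the break, had a log2 fold change of 0.59 (SE 0.150), and its groups overlap. AT5G28300 and AT5G27930 each kept their call in 2 of the 6 fits with a sample left out. The nearest gene of all, CYSD2, a cysteine synthase gene 0.845 kb from the left break, was not called (0.25, SE 0.116, adjusted p = 0.201).

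The morning differences could be set beside those of the evening, t1, in other samples: 3 of pAP142 and 4 of Col-0. At t1, 3916 genes were called, 18.3% of those tested, with 9.39% higher and 8.94% lower. Of the 1654 genes called in the morning, 965 were called in the same direction in the evening, 58.3% of the morning calls and 24.6% of the evening calls, and 11 were called in opposite directions. A same sign at both times was found for 92.3% of the morning calls and for 70.1% of all genes tested. Across the 21348 tested genes outside the deletion the fold changes of the 2 times had a Pearson correlation of 0.67, a description over genes that share their libraries at each time. NAC044 (3.74 at t1), AT2G04050 (3.64), PR2 (3.49), NUC-L2 (2.38), AT3G09680 (2.75) and TIP2-3 (-2.96) had log2 fold changes in the evening close to those of the morning.

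The difference between the times was tested directly by the interaction of genotype and time point, and 45 genes were called, 0.211% of those tested (0.117% with a higher and 0.0937% with a lower morning effect). The 4 with the smallest adjusted p among those with a higher morning effect were AT1G33600, a leucine-rich repeat protein gene, NADP-ME2, a cytosolic malic enzyme gene, AT2G16660, a major facilitator gene, and the ammonium transporter gene AMT2. AT1G33600 had 36.3, 36.4 and 44.0 TPM in pAP142 t2 against 26.6, 25.2 and 24.5 TPM in Col-0 t2, a log2 fold change of 0.64 in the morning, whereas it had -0.48 in the evening. AT2G16660 had 1.32 in the morning and -0.95 in the evening, and AMT2 had 0.71 and -0.57. These 3 genes were called at both times in opposite directions. NADP-ME2 had 0.28 in the morning, with no call, and -0.70 in the evening.

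The 4 with the smallest adjusted p among those with a lower morning effect were RPL3B, AAP1, DGD1 and FAO3. RPL3B, the second gene for ribosomal protein L3, had 15.8, 12.9 and 13.3 TPM in pAP142 t2 against 27.3, 30.6 and 18.8 TPM in Col-0 t2 (log2 fold change -0.83, SE 0.117, adjusted p = 4.53e-04 in edgeR), and 0.35 in the evening. DGD1, which makes the galactolipid of chloroplast membranes, had -0.32 in the morning and 0.53 in the evening. The amino acid permease gene AAP1 and the fatty alcohol oxidase gene FAO3 were called in the evening alone, at 0.86 and 0.66, and had -0.03 and -0.10 in the morning. RPL3B lies outside the list of cytosolic ribosomal proteins, of which 63 of 159 were called higher at t1 (39.6%, against 9.39% of all genes) and 7 at t2. None of the 159 was called in the interaction. Their median interaction was -0.25, against 0.01 over all genes, and 23.9% of them had an unadjusted p under 0.05, against 10.5% of all genes.

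**Figure D5:**
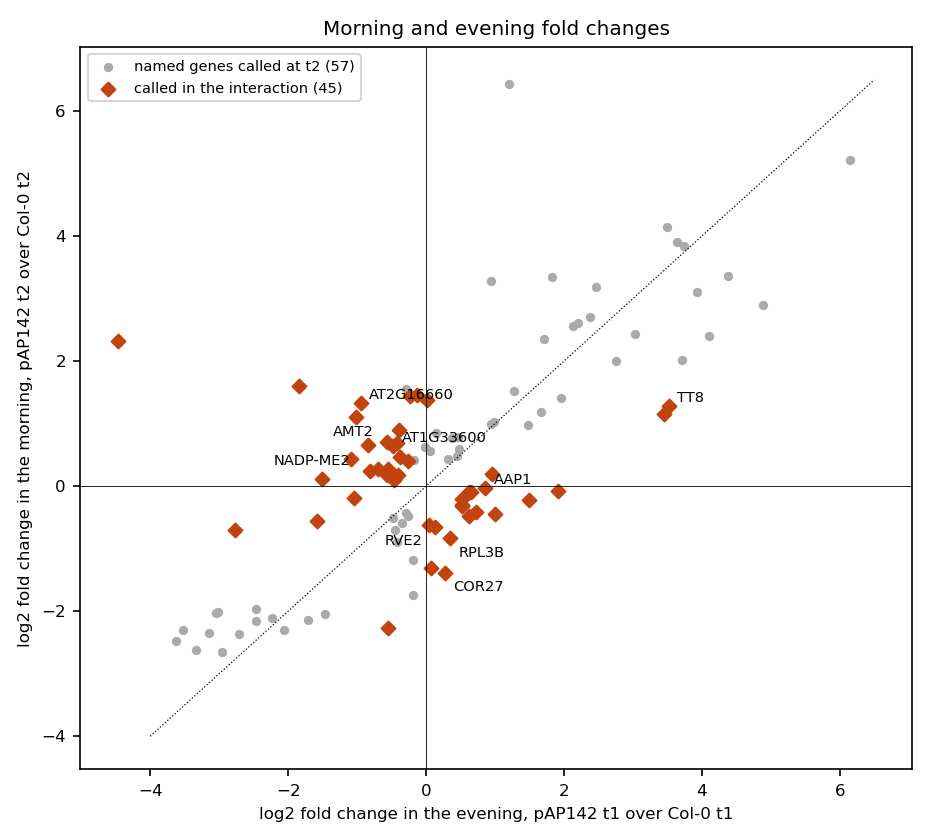
log2 fold change of pAP142 over Col-0 in the morning (t2, vertical axis) against that in the evening (t1, horizontal axis), for named genes called at t2 (grey circles) and for the 45 genes called in the interaction of genotype and time point (diamonds), with equal values on the dotted line. Most grey circles lie near the line, and AT1G33600, AT2G16660, AMT2 and RPL3B lie in the quadrants of opposite sign.

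A second deletion line of the same experiment was set beside pAP142. pAP141 lacks another block, on chromosome 3, and had 2 morning samples. Against pAP141 t2, 3410 genes were called (16% of those tested), and without pAP141 t2 replicate 1, which stood apart from the other morning samples with a TMM factor of 0.743 (0.898 to 0.979 in the others), 505. This comparison shares the pAP142 t2 samples with the one above, so its values are given side by side. Over pAP141 t2, log2 fold changes were 4.08 for NAC044, 3.85 for AT2G04050, 5.11 for TH8, 4.77 for PR2, 2.71 for NUC-L2, 2.27 for AT3G09680 and -3.66 for TIP2-3, each called, and over Col-0 t2 they were 3.83, 3.90, 3.36, 4.14, 2.71, 2.0 and -2.66. AT4G07995, RTFL21, AT1G75945 and AT1G64795, among the largest increases over Col-0 t2, were not called over pAP141 t2. Their adjusted p values in edgeR were 0.220, 0.156, 0.123 and 0.0612 in that order.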

How the data were processed

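RNA-seq libraries were made with a stranded poly(A) kit. The authors quantified reads with salmon 1.6.0 against the primary Araport11 transcript of each gene, inspected HISAT2 2.2.1 alignments and tested with DESeq2 1.44.0. Estimated counts, as deposited, are reads assigned to each transcript without normalization, and were rounded here to integers. TPM, also deposited, corrects for the effective transcript length that salmon gave the authors. The 15 samples of the pAP146 experiment were not used.

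Genes were filtered with filterByExpr, scaled by TMM and fitted in edgeR 4.0.16 (R 4.3.3) with all 19 time-of-day samples in 6 groups, as the comparison with t1 and pAP141 needs. The quasi-likelihood F test was robust, the common biological coefficient of variation was 0.152, and SEs come from the same fit. In simulated data, 75 of 100 genes changed 2-fold and 97 of 100 changed 4-fold were recovered, with 10 unchanged genes called. For totals, exact permutation tests, 2-sided, were run in Python 3.11.15.

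Gene symbols, products, coordinates and sequence are from RefSeq, assembly TAIR10.1. The comparison and the gene lists were chosen with earlier results of these data known. Named genes are the deleted genes and paralogues, up to 3 called members of each list per direction with the smallest adjusted p (or the member with the smallest p where none was called), called genes among the 10 nearest tested genes on each side of the deletion, 4 interaction genes per direction, and the 12 largest increases and 12 largest decreases among 1020 called genes outside the deletion whose group with the higher level averaged 5 TPM or more and whose groups did not overlap. One gene of the last set is not reported here. Other members were named after their values were seen. Alternatives were RLE size factors, no filter on counts, effective length offsets, the 6 samples alone, a replicate block, DESeq2 1.42.0 and each sample left out. Poisson intervals and floors cover counting error only.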

Additional observations from a re-analysis of the deposited data

Results flagged for a closer look

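For 11 of the named genes the difference of pAP142 from Col-0 was not the same in morning and evening. The edgeR test of the interaction called them, among 45 genes in all. All but TT8, RVE2 and COR27 were named because of this call, 4 genes per direction. With the morning effect minus the evening effect on the log2 scale, the difference was 1.12 for AT1G33600, 0.98 for NADP-ME2, 2.27 for AT2G16660 and 1.28 for AMT2. It was -1.19 for RPL3B, -0.90 for AAP1, -0.84 for DGD1 and -0.76 for FAO3. Among the list members it was -2.24 for TT8, which was higher in pAP142 at both times (log2 fold change 1.28 in the morning and 3.52 in the evening). It was -0.78 for RVE2 and -1.65 for COR27, which were lower in the morning (-0.65 and -1.38) and had 0.13 and 0.27 in the evening, with no call there. Each was tested for the difference itself, over all genes tested. In place of the 45 calls, the replicate block gave 15 and DESeq2 gave 248.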

How the results depend on the processing

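With the 6 samples alone, the calls were 1047 (680 higher and 367 lower), and 866 of the 1654 calls kept their direction and their call. Over the fits with 1 sample left out, the calls ranged from 661 to 2544, the higher ones from 455 to 1572 and the lower ones from 206 to 972. The interaction ranged from 32 to 49 calls when a pAP142 t2 sample was left out (no other sample was left out for it), and the comparison with pAP141 t2 from 505 to 4076, where both of these values come from leaving out a pAP141 t2 sample, a choice made after seeing the data. The interaction held 15 calls with the replicate block and 248 in DESeq2, also tried after seeing the data. The correlations of the residuals of same-numbered pAP142 t2 and Col-0 t2 samples were 0.18, 0.0049 and 0.19. Those of differently numbered samples ranged from -0.28 to 0.15. With so few samples these values cannot decide whether the replicate numbers pair the samples, and the main fit has no pairing. With the replicate block 1622 genes were called for pAP142 t2 against Col-0 t2 and 3238 against pAP141 t2, and, in the 6 samples alone with the block, 1840. RLE size factors, no filter on counts, effective length offsets and DESeq2 gave 1628, 1460, 1662 and 2282 calls, and 1642 of the 1654 calls were kept in DESeq2. The sum of the paralogues turned its sign in 3 fits with a sample left out (log2 ratio from -0.033 to 0.060), as did 4 genes that were not called: CYSD1 (-0.075 to 0.010), AT3G04920 (-0.020 to 0.079), AT3G04860 (-0.038 to 0.074) and AAP1 (-0.065 to 0.023). The log2 ratio of the deleted genes ranged from -6.71 to -6.63 over the samples left out. Of 87 named genes, 72 were called, and 2 of these lost their call in DESeq2, AT5G46900 and AT1G05240.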

Other observations

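Other genes called in the interaction are named here after their values were seen, and stand for no group. AMY3, a plastid alpha-amylase gene, had 16.9, 17.1 and 14.3 TPM in pAP142 t2 against 13.0, 11.1 and 11.6 TPM in Col-0 t2 (log2 fold change 0.46, SE 0.108, adjusted p = 0.0140 in edgeR), and -0.38 in the evening. TPPB, a trehalose-6-phosphate phosphatase gene, had 0.89 in the morning (SE 0.188) and -0.39 in the evening, with no call there. GBSS1, the granule-bound starch synthase gene, had 80.9, 58.7 and 54.6 TPM in pAP142 t2 against 76.0, 75.9 and 57.9 TPM in Col-0 t2, which overlap, whereas its log2 fold change was 1.92 in the evening. The sucrose transporter gene SWEET13 was called higher at both times, by 1.15 in the morning and 3.45 in the evening.

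The nitrate transporter gene NRT2.6 had -4.46 in the evening and 2.33 in the morning, with no morning call (SE 1.09, adjusted p = 0.216 in edgeR) and at under 0.3 TPM in every morning sample. The glycosyltransferase gene AT3G55710 had 0.329, 0.552 and 0.387 TPM in pAP142 t2 against 2.79, 1.96 and 1.61 TPM in Col-0 t2 (log2 fold change -2.27, SE 0.254) and -0.55 in the evening, with no call there. The auxin-responsive family gene AT5G35735 had 18.97, 27.95 and 29.6 TPM in pAP142 t2 against 10.2, 10.4 and 8.44 TPM in Col-0 t2 (1.44, SE 0.206) and -0.23 in the evening, and CHX16, a cation/proton exchanger gene, had 1.38 (SE 0.181) and 0.01. The drought transcription factor gene DREB2B had -1.30 in the morning (SE 0.217) and 0.08 in the evening.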
